A study of Mus musculus with 2 samples.

Results

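The genes of the mouse major histocompatibility complex (MHC) and the genes that load and control its products were followed in the left cerebral cortex. Members were all genes with an annotated protein-coding transcript whose symbol starts with H2-, together with B2m, Tap1, Tap2, Tapbp, Nlrc5, Ciita and Cd74. The rule gave 44 genes of the 55536 annotated genes in the gene table, and it used no measured value. A further 8 H2- genes have no protein-coding transcript and were left out. One of the 44, H2-Ke6, lies in the complex but encodes a steroid dehydrogenase of mitochondria and takes no part in antigen presentation.

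Total RNA came from male B6CASTF1/J mice aged 25 days, hybrids that carry 1 chromosome set of C57BL/6J and 1 of the wild-derived strain CAST/EiJ. There was 1 group of 2 samples, replicate 1 and replicate 2, with 300 ng of RNA in each library. No condition was compared, so nothing was tested between groups, and differences between the samples describe these libraries only. The labels call the samples biological replicates and number their tissue separately but give them the same donor entry, and each SD over 2 animals takes them as separate animals. The libraries held 30503944 expected counts in replicate 1 and 33263801 in replicate 2.

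MHC class I molecules display peptides from inside the cell on its surface, as a heavy chain bound to the light chain B2m. Peptides are cut by the proteasome, carried into the endoplasmic reticulum by the transporter TAP (Tap1 and Tap2) and loaded with the help of tapasin (Tapbp). Class II molecules are alpha and beta chain pairs that present peptides taken up from outside the cell, mainly on dendritic cells, B cells and macrophages, and they are guided by the invariant chain (Cd74) and loaded with the help of H2-DM. In the brain, class I is found on endothelial cells and at a low level on neurons, where it has been tied to synapse remodelling, and class II is mainly a feature of macrophages at the borders of the brain.

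Much of class I heavy chain sequence is common to many genes, which sets how reads can be divided among them. The coding sequence of the C57BL/6 reference was aligned to that of H2-K1, a classical heavy chain. H2-D1, the other classical heavy chain, was identical at 91.5% of aligned coding bases, H2-Q4 at 90.6%, H2-Q6 at 88.7%, H2-Q7 at 88.2%, H2-Q10 at 88.1% and H2-T23 at 83.4%. H2-T22 was identical at 74.4%, and H2-M1, the most distant of the class I genes aligned, at 63.4%. The following 60-base stretches show where 7 of these genes differ least and most. A read longer than such a stretch can still differ outside it. In the stretch of fewest differences, in exon 4, which encodes the domain that CD8 contacts, H2-K1 (chr17:33997439-33997498, minus strand, mm10) matches H2-D1, H2-Q10 and H2-T23 at every base, H2-Q4 differs at 2 bases and H2-Q6 and H2-Q7 at 1 base each. Capitals mark bases that differ from H2-K1, and only 3 positions vary among the 7 genes.
H2-K1: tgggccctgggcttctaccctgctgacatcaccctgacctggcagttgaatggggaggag
H2-D1: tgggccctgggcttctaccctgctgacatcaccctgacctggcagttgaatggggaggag
H2-T23: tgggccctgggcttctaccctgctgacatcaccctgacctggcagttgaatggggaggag
H2-Q4: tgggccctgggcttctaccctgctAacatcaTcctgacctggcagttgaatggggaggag
H2-Q7: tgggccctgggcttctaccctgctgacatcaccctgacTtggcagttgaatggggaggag

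In the stretch of most differences, in exon 3, which encodes part of the peptide-binding groove (H2-K1 at chr17:33999348-33999407, minus strand, mm10), 38 of 60 positions vary among the same 7 genes. H2-D1 differs from H2-K1 there at 14 bases, H2-Q4 at 12, H2-Q7 at 13 and H2-T23 at 24, again in capitals.
H2-K1: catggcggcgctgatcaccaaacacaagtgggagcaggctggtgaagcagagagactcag
H2-D1: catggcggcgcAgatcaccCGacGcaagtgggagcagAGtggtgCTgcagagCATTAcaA
H2-T23: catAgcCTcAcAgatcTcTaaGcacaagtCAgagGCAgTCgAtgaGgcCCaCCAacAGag
H2-Q4: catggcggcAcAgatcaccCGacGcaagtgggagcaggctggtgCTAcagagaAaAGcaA
H2-Q7: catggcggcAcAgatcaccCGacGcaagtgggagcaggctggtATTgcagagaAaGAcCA

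Over all annotated transcripts of a gene, 0.957% of the 100-base windows of H2-K1 and 3.59% of those of H2-D1 occur exactly in another gene. At 31 bases these shares are 22.8% and 26.7%. The shared 100-base windows of H2-K1 occur in H2-Q10, H2-Q5 and H2-Q7, and in neither H2-D1 nor H2-T23. The shares at 100 bases are higher for H2-Q7, at 11.98%, for H2-Q6, at 10.8%, for H2-T22, at 8.86%, and for H2-T10, its closest match, at 7.06%. H2-DMb1 and H2-DMb2, 2 beta chains of the class II loading factor, share 179 such windows, 11.3% of those of H2-DMb1. B2m, Tap1, Tap2, Cd74 and the 12 genes of the M region share none at this length. These shares hold for the C57BL/6 reference alone: the animals also carry a CAST/EiJ chromosome, its sequence was not used here, and the deposited tables do not divide reads by allele, so reads from polymorphic CAST/EiJ alleles that were lost or given to a neighbour could not be measured.

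Most members were low in cortex, and the share of members detected was close to that of all genes. In TPM, a unit that divides counts by transcript length and scales each library to the same total, 11 of 44 members reached 1 TPM in both animals (25%), against 14744 of 55536 annotated genes (26.5%). In a second quantification deposited with each library, described further on as the second transcript table, 17 members did: H2-Q4, H2-T24, H2-M3, Tap1, H2-Ab1 and H2-Aa came in addition. The median member had a mean of 0.355 TPM, against 0.005 TPM for the median annotated gene. In the gene table, no read was assigned to 12 members in either animal, and 21 members averaged 10 or more expected counts over the animals. Of those 12 members, the second table gave reads to H2-T3, H2-M2 and H2-Eb2. In bulk tissue, fewer cells of a type and less RNA per cell cannot be told apart. The plot of levels in gene order along chromosome 17 shows the detected members spread along the complex up to the T region, and most members without a read in the M region.

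**Figure D1:**
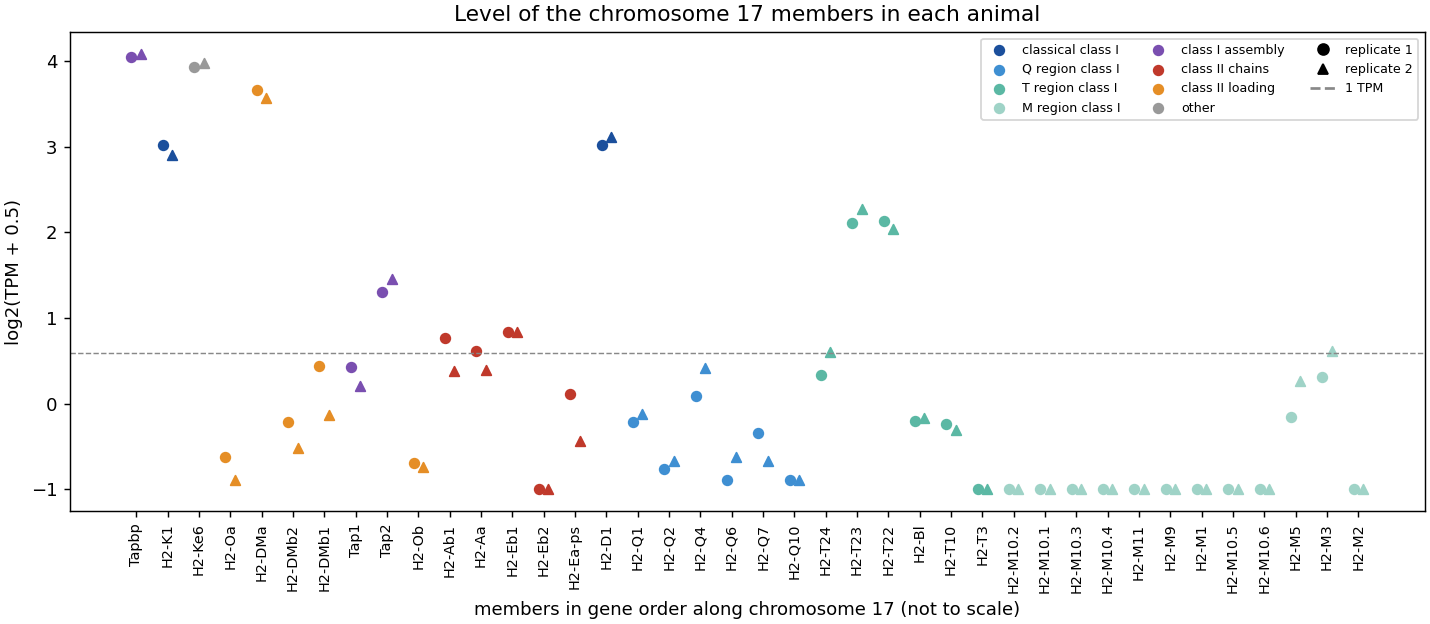
Level of each chromosome 17 member on a log2(TPM + 0.5) axis, in gene order (spacing is not to scale), with circles for replicate 1, triangles for replicate 2, colours for the gene class and a dashed line at 1 TPM. Tapbp, H2-Ke6, H2-DMa, H2-D1 and H2-K1 stand highest, and 10 of the 12 M region genes lie at 0 TPM.

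B2m, the light chain of class I molecules, was the most abundant member. It reached 41.3 TPM in replicate 1, from 632 counts, and 46.9 TPM in replicate 2, from 804 counts (44.1 ± 4.00, SD, n = 2). The classical heavy chains stood well below it and, by gene total, close to each other. H2-D1 had 7.63 and 8.17 TPM in replicates 1 and 2 (7.90 ± 0.382), and H2-K1 had 7.59 and 6.96 TPM (7.28 ± 0.445). The 4 values lie between 6.96 and 8.17 TPM, and in replicate 1 the genes differed by less than their SD over animals. Protein-coding transcripts alone put H2-D1 higher in both tables. They gave H2-D1 7.20 TPM in replicate 1 and 6.92 TPM in replicate 2, and H2-K1 3.64 and 4.86 TPM. In the second table they gave H2-D1 11.6 and 11.2 TPM and H2-K1 8.91 and 7.10 TPM. B2m exceeded H2-D1 5.41-fold in replicate 1 and 5.74-fold in replicate 2, and it exceeded the sum of all class I heavy chains 1.53-fold and 1.66-fold.

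Among non-classical class I genes, only H2-T22 and H2-T23 reached 1 TPM in both animals in the gene table, and H2-Q4, H2-T24 and H2-M3 did so too in the second table. H2-T23 encodes Qa-1, the ligand of the NKG2A receptor of natural killer cells, and had 3.80 TPM in replicate 1 and 4.33 TPM in replicate 2 (4.07 ± 0.375). H2-T22 encodes a chain that carries no peptide and is recognised by some gamma delta T cells, and it had 3.87 and 3.61 TPM (3.74 ± 0.184). The values of these T region genes overlap in the gene table. In the second table H2-T23 was higher, with 7.05 TPM in replicate 1 and 9.21 TPM in replicate 2, against 5.68 and 5.27 TPM for H2-T22. H2-T24 had 0.76 and 1.02 TPM, H2-Bl 0.37 and 0.39 TPM and H2-T10 0.35 and 0.31 TPM. H2-T3, the thymus leukaemia antigen of gut and thymus, had no read in the gene table and 2.19 counts in replicate 1 in the second table.

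The Q region genes encode the Qa-2 antigens (H2-Q6 and H2-Q7), a secreted liver chain (H2-Q10) and relatives. None reached 1 TPM in either animal in the gene table. H2-Q4 was the highest, at 0.56 TPM in replicate 1, on 21.3 counts, and 0.83 TPM in replicate 2, on 35.8 counts, but the second table put it at 4.13 and 3.40 TPM, so that its detection depends on the table. H2-Q1 had 0.36 and 0.42 TPM and H2-Q7 0.29 and 0.13 TPM, and H2-Q2, H2-Q6 and H2-Q10 lay between 0.04 and 0.15 TPM.

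In the M region, H2-M3, which presents bacterial peptides that begin with formyl methionine, had 0.74 TPM in replicate 1 and 1.03 TPM in replicate 2. H2-M5 had 0.40 and 0.70 TPM. The other 10 genes, H2-M1, H2-M2, H2-M9, H2-M10.1 to H2-M10.6 and H2-M11, had no count in the gene table in either animal. The second table gave H2-M2 1.02 counts in replicate 1. The H2-M1, H2-M9, H2-M11 and H2-M10 genes are known from sensory neurons of the vomeronasal organ. A count of 0 allows up to 3 counts, which is up to 0.164 TPM for H2-M11, the shortest of these, in replicate 1 and up to 0.147 TPM in replicate 2, counting error only.

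H2-K1 and H2-D1 together carried 56.6% of the summed class I heavy chain TPM in replicate 1 and 53.6% in replicate 2. The T region followed with 34.0% and 34.2%. The M region gave 4.24% and 6.13% and the Q region 5.13% and 6.02%.

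The assembly genes differed widely in level. Tapbp had 16.1 TPM in replicate 1 and 16.5 TPM in replicate 2 (16.3 ± 0.255), above the heavy chains it serves. The TAP transporter subunits were much lower: Tap2 had 1.96 and 2.25 TPM (2.11 ± 0.205) and Tap1 had 0.84 and 0.65 TPM (0.745 ± 0.134). Protein-coding transcripts alone did not settle the order of Tap2 and Tap1. They gave Tap2 0.28 TPM in replicate 1 and 0.76 TPM in replicate 2, and Tap1 0.69 and 0.46 TPM. In the second table they gave Tap2 1.34 and 1.79 TPM and Tap1 0.803 and 0.734 TPM. Tapbp exceeded Tap1 19.2-fold in replicate 1 and 25.3-fold in replicate 2. The regulators were near the floor of the data. Nlrc5, the transactivator of class I promoters, had 5 counts in replicate 1 and 9 in replicate 2, or 0.09 and 0.31 TPM. Ciita, the transactivator of class II promoters, had 1 and 4 counts, or 0.01 and 0.10 TPM.

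On the class II side, the chains stood well below the classical heavy chains of class I. H2-Eb1, a beta chain, had 1.28 TPM in each animal, on 27 counts in replicate 1 and 21 in replicate 2. H2-Ab1, the other classical beta chain, had 1.2 and 0.80 TPM, and H2-Aa, its alpha partner, had 1.03 and 0.81 TPM. The values of H2-Ab1 and H2-Aa overlap. By gene total the order of the beta chains was not settled, with H2-Eb1 above H2-Ab1 in the gene table. In the second table H2-Ab1 had 3.20 TPM in replicate 1 and 2.72 TPM in replicate 2, and H2-Eb1 2.19 and 1.59 TPM. Protein-coding transcripts alone put H2-Ab1 higher in both tables. They gave H2-Ab1 1.14 and 0.70 TPM, and H2-Eb1 0.22 and 0.12 TPM on 6.83 and 3.01 counts. In the second table they gave H2-Ab1 1.88 and 1.94 TPM and H2-Eb1 0.33 and 0.59 TPM. H2-Ea-ps, the alpha chain gene that a promoter deletion silences in C57BL/6 mice, had 11 counts in replicate 1 and 5 in replicate 2 (0.58 and 0.24 TPM). Which of the C57BL/6J and CAST/EiJ alleles gave these counts could not be measured. H2-Eb2, a further beta chain gene, had no count in the gene table. Cd74, the invariant chain, stood above the chains it escorts, with 3.12 TPM in replicate 1 and 2.42 TPM in replicate 2 (2.77 ± 0.495), which is 3.03 and 2.99 times H2-Aa.

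H2-DMa, the alpha chain of the peptide exchange factor H2-DM, stood apart from its partners. It had 12.1 TPM in replicate 1, on 249 counts, and 11.4 TPM in replicate 2, on 251 counts (11.7 ± 0.544). Its beta partner H2-DMb1 had 0.86 and 0.41 TPM, so that H2-DMa exceeded it 14.1-fold and 27.7-fold (6.08-fold and 29.7-fold in the second table), and H2-DMb2 had 0.36 and 0.20 TPM. H2-Oa and H2-Ob, the chains of the H2-DM inhibitor, had between 0.04 and 0.15 TPM. H2-DMa lies beside Brd2, a chromatin reader on the opposite strand with 86.1 TPM in replicate 1 and 77.6 TPM in replicate 2, and 360 of the 3448 exonic bases of H2-DMa (10.4%) are also exonic in Brd2. That overlap lies in 2 of its 8 transcripts, H2-DMa-206 and H2-DMa-208, to which 0 and 7.30 counts were assigned in replicate 1 and 0 and 7.64 in replicate 2. The protein-coding H2-DMa-205, which shares no base with Brd2, held 163 of the counts in replicate 1 and 187 in replicate 2. The second table gave H2-DMa-205 74.3 and 72.0 counts. There the protein-coding H2-DMa-201, which also shares no base with Brd2, had 128 and 125. The strand setting of the counting is not given in the sources used here, so reads of opposite-strand partners could be mixed for Tapbp, Tap1, Tap2, H2-T22, H2-T10, H2-Q4, H2-Oa, Ciita and Nlrc5 too, which share exonic bases with a gene on the other strand.

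H2-Ke6, the dehydrogenase gene, had 14.8 TPM in replicate 1 and 15.3 TPM in replicate 2. It is uncertain, because 61.6% of its 100-base windows also belong to the overlapping read-through gene Gm20427, which had 152 and 65.3 counts.

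Reads assigned between near-identical genes leave fractional expected counts. Of the 21 members averaging 10 or more counts, 10 had a count more than 0.01 from a whole number in at least 1 animal (47.6%), against 3059 of 18136 such genes over the whole table (16.9%). The SD of the deposited posterior count exceeded 5% of its mean in 3 of them (14.3%), against 5.75% of all such genes. These were H2-Q1, at 12.5% in replicate 1 and 10.5% in replicate 2, H2-T10, at 10.1% and 8.59%, and H2-DMb1, at 5.73% and 6.86%. The classical chains were far better settled, with 0.403% and 0.233% for H2-K1 and 0.765% and 0.870% for H2-D1.

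The second transcript table, made from the same libraries with another program by its column names, offers a check on that assignment. Summed over its transcripts, H2-Q4 had 21.3 counts in the gene table and 95.8 in the second table in replicate 1, and 35.8 and 92.7 in replicate 2. H2-Q7 had 8.54 in the gene table and 38.6 in the second table in replicate 1, and 4.48 and 39.0 in replicate 2. The 6 Q region genes together had 50.4 counts in the gene table and 193 in the second table in replicate 1, and 71.1 and 190 in replicate 2. The Q region share of class I TPM was 5.13% in the gene table and 13.4% in the second table in replicate 1, and 6.02% and 12.3% in replicate 2, while that of H2-K1 with H2-D1 was 56.6% and 47.9%, and 53.6% and 45.02%. H2-K1 and H2-D1 themselves moved little in counts. H2-K1 had 142 in the gene table and 141 in the second table in replicate 1, and 163 and 168 in replicate 2, and H2-D1 had 287 in the gene table and 301 in the second table in replicate 1, and 320 and 328 in replicate 2.

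TPM was lower in the gene table than in the second table for most genes, with a median log2 ratio of -0.59 in replicate 1 and -0.60 in replicate 2 over all genes, and -0.58 and -0.49 over the members. More than 2-fold lower TPM in the gene table in both animals was found for 2 of 21 members, H2-Ab1 and H2-Q4, against 7.73% of 18124 genes, and more than 2-fold higher TPM for 0 of 21, against 2.1%. By counts, H2-Q4 was the one of these 21 over 2-fold lower (background 2.01%), and 0 were over 2-fold higher (background 3.01%). The 21 members were filtered on the gene table, which leaves out genes with few counts there. Among the 26 members averaging 10 or more counts in either table, a filter chosen after the values were seen, H2-Q4, H2-Q6, H2-Q7 and H2-Q10 were over 2-fold lower (background 11.6% of 20515 genes) and 0 were higher (background 2.66%). H2-Q6, H2-Q7 and H2-Q10 passed it through the second table alone, with mean gene table counts of 3.1, 6.5 and 2.2. Their lower direction therefore follows from the filter, and of these genes H2-Q4 alone also passed on the gene table. At a 1.2-fold limit on counts, chosen after the values were seen, H2-Q4, H2-T23, H2-T24 and H2-M5 were lower in the gene table (4 of 21, background 9.93%), and B2m and H2-DMb1 were higher (2 of 21, background 5.98%). B2m has a single annotated transcript and no window of 31 bases in common with another gene, and it had 632 counts in the gene table and 478 in the second table in replicate 1, and 804 and 582 in replicate 2.

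**Figure D2:**
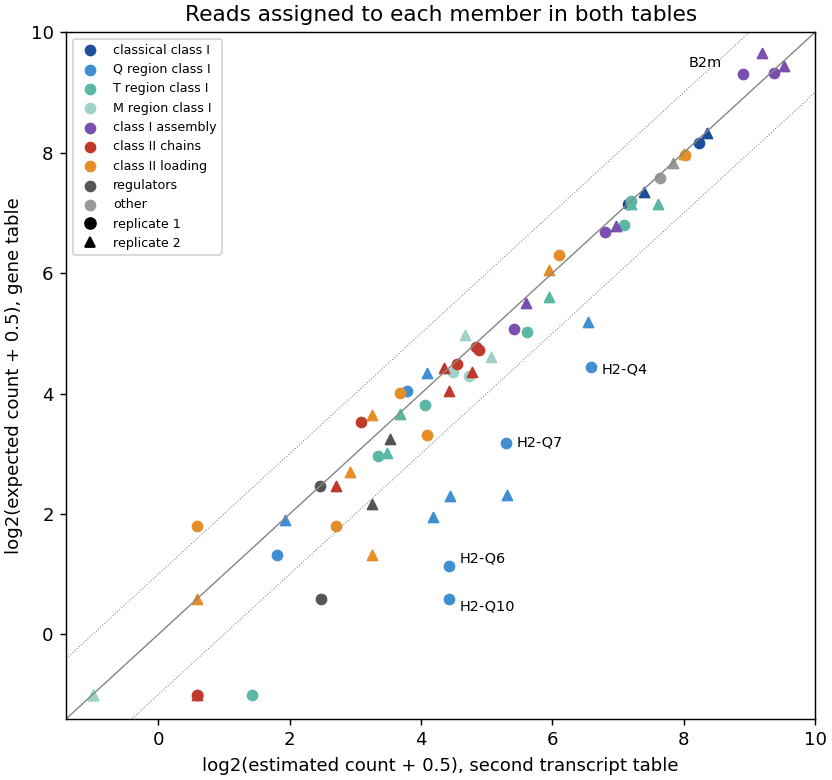
Counts of each member with any read, as log2(count + 0.5), in the gene table (vertical axis) against the second transcript table (horizontal axis), with circles for replicate 1 and triangles for replicate 2. The solid line marks equal counts and the dotted lines 2-fold differences. The Q region genes H2-Q4, H2-Q6, H2-Q7 and H2-Q10 fall below the lower dotted line in both animals, and B2m sits above the solid line.

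Differences between the animals were small. On log2(TPM + 0.5) the median member differed by -0.03 (replicate 1 over replicate 2), against 0.03 over all 18136 genes with enough counts, with 9 members higher in replicate 1, 11 lower and 1 equal. No member differed 1.5-fold or more in either direction on this scale, against 2.21% of genes at least 1.5-fold higher in replicate 1 and 1.54% at least 1.5-fold lower. With counts scaled by the trimmed mean of M-values (TMM), the exact 95% counting interval of the ratio lay below 0 for B2m (log2 -0.22, interval -0.38 to -0.07), for no other member and above 0 for none. Over all genes 11% lay below 0 and 10.6% above. H2-Q4 had the lowest TMM value of these members, -0.61, which is past 1.5-fold on that scale but of the opposite sign in the second table, with an interval of -1.50 to 0.16.

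By gene total, the class II side was higher in replicate 1 and most of the class I side lower. The 6 members of that side with a mean count of at least 10 (Cd74, H2-Aa, H2-Ab1, H2-Eb1, H2-DMa and H2-DMb1) had TMM-scaled counts higher in replicate 1 in 6 of 6 cases, against 48.0% of all such genes, with a median log2 of 0.48. By TPM 5 were higher and H2-Eb1 was equal, against 57.8% of genes higher, with a median of 0.27, and 6 were higher in the second table, against 54.1%, with a median of 0.26. Of the 14 members on the class I side, 4 were higher in replicate 1 and 10 lower by TMM, with a median of -0.20. The count was the same by TPM, with a median of -0.13, and 5 were higher and 9 lower in the second table, with a median of -0.02, so that the size of the class I difference depends on the table. Each class II interval includes 0, and the summed class II counts were only 418 in replicate 1 and 386 in replicate 2. With counts scaled to the spike-in total, H2-DMa was at -0.04, and the rest of the 6 stayed higher in replicate 1. By protein-coding TPM in the second table, H2-DMb1, H2-Eb1 and H2-Ab1 were lower in replicate 1, and Cd74, H2-Aa and H2-DMa higher. The split into sides was not among the planned comparisons.

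Among the members furthest apart, H2-DMb1 differed by 0.58, H2-Ab1 by 0.39 and Cd74 by 0.31 (log2, TPM + 0.5), all higher in replicate 1. Without its retained-intron transcript, H2-DMb1 had 0.46 TPM in replicate 1 and 0.41 TPM in replicate 2. Its protein-coding H2-DMb1-201 turned lower in replicate 1 in the second table, at 0.158 against 0.446 TPM (2.60 against 8.16 counts). There the gene differed by 1.71, mostly through the retained-intron H2-DMb1-202, at 2.86 against 0.164 TPM. H2-M5 differed by -0.42, H2-Q4 by -0.33 and H2-M3 by -0.30. In the second table H2-Q4 turned to 0.25 and H2-M3 was at -0.02, while H2-M5 was at -0.46. The H2-M5 difference lay mostly in H2-M5-201, a transcript of 414 bases with no count in replicate 1 in either table. In replicate 2 it had 0.29 TPM on 2.05 counts, and 0.499 TPM on 0.989 counts in the second table. The retained-intron H2-M5-202 had 0.40 and 0.41 TPM, and by TMM-scaled counts H2-M5 differed by -0.21. H2-K1 and Tap1 changed sign with the unit, at 0.12 and 0.22 by TPM but -0.08 and -0.32 by TMM-scaled counts.

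**Figure D3:**
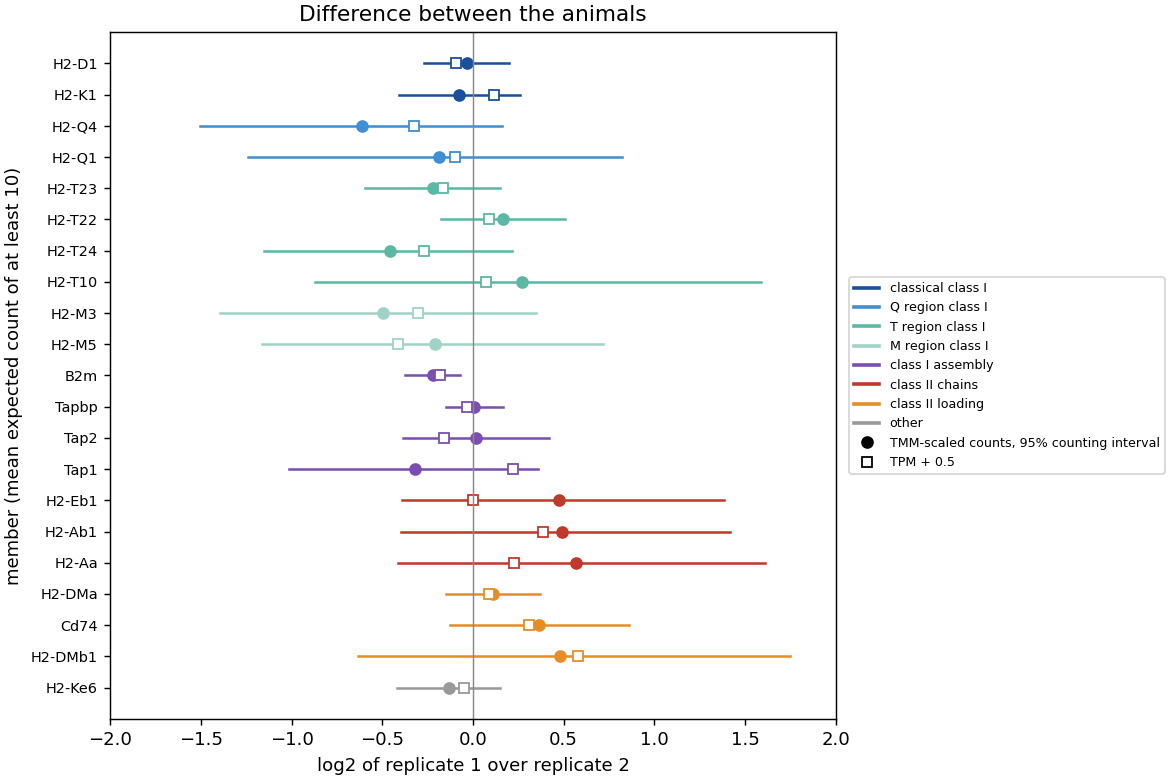
Log2 of replicate 1 over replicate 2 for the 21 members averaging 10 or more expected counts, coloured by class, as TMM-scaled counts with exact 95% counting intervals (filled circles and lines) and as TPM + 0.5 (open squares). The class II members lie to the right of 0 by counts, and the interval of B2m alone leaves out 0.

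Markers of other cells moved between the animals as well, and their part in these differences was not tested. Of 6 markers of macrophages at the brain's borders, Mrc1 had 3.04 TPM in replicate 1 and 2.44 TPM in replicate 2, Cd163 1.90 and 1.26 TPM and Lyve1 1.84 and 1.30 TPM, whereas Pf4 had 1.16 and 2.33 TPM and F13a1 1.85 and 1.96 TPM. Summed, these 6 markers came to 10.05 TPM in replicate 1 and 9.52 TPM in replicate 2. The 8 microglia markers were all detected and summed to 163 and 159 TPM. The 4 choroid plexus markers summed to 20.5 TPM in replicate 1 and 196 TPM in replicate 2, mainly Ttr, and the 4 oligodendrocyte markers to 702 and 941 TPM. Of 6 endothelial markers all were detected, with sums of 90.3 and 91.1 TPM. None of the 4 B cell and none of the 6 T cell markers reached 1 TPM in both animals. Cd3d, Cd3g and Cd8a had no read in the gene table, nor did the dendritic cell markers Xcr1 and Clec9a, although Flt3 and Zbtb46, also found outside dendritic cells, were detected.

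Several genes of the class I pathway were represented in large part by transcripts that keep an intron. Of the Tap2 reads in the first transcript table, 81.6% in replicate 1 and 74.7% in replicate 2 were assigned to Tap2-202, a retained-intron transcript of 2561 bases. In the second table the share was 56.9% and 47.8%. For H2-T22 retained-intron transcripts took 33.1% of reads in replicate 1 and 29.6% in replicate 2 (35.8% and 35.8% in the second table), and for Tap1 28.1% and 33.9% (40.9% and 31.2%). Reads of unspliced RNA, which total RNA libraries contain, and reads of such transcripts cannot be told apart here.

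H2-D1 and Tapbp were almost free of such reads, with 1.85% in replicate 1 and 5.43% in replicate 2 for H2-D1 and 1.18% and 0.739% for Tapbp. Most H2-D1 TPM lay in the protein-coding H2-D1-202, at 91.0% in replicate 1 and 81.7% in replicate 2. Tapbp TPM was led by Tapbp-206, at 41.2% and 45.1%, but the second table gave 65.7% in replicate 1 and 69.4% in replicate 2 to Tapbp-201. Cd74 was divided between Cd74-202, with 62.9% in replicate 1 and 45.2% in replicate 2, and Cd74-201, with 37.1% and 54.8%. Tap1-206 held 42.6% and 71.0% of Tap1 TPM, on 20.4 and 29.7 counts.

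**Figure D4:**
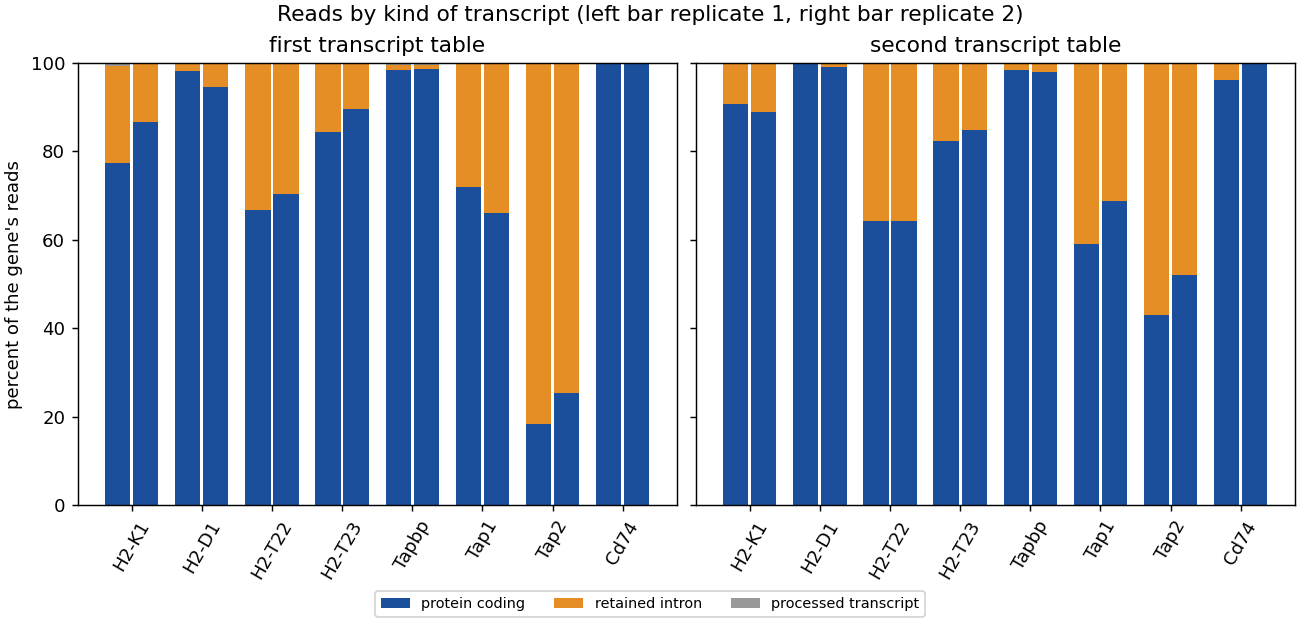
Percent of the reads of 8 members assigned to protein-coding, retained-intron and processed transcripts, in the first transcript table (left panel) and the second (right panel), with replicate 1 as the left and replicate 2 as the right bar of each pair. Tap2 has the largest retained-intron share of these genes in both tables, and Cd74, Tapbp and H2-D1 have almost none.

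In the first transcript table, much of the H2-K1 level lay in 1 short transcript. H2-K1-215, a retained-intron transcript of 457 bases, held 22 of 142 counts but 40.2% of H2-K1 TPM in replicate 1, and 7.75 of 163 counts and 13.8% of TPM in replicate 2. The second table gave it 3.54 counts and 13.9% of TPM in replicate 1 and no count in replicate 2. All retained-intron transcripts of H2-K1 held 21.98% of its counts in replicate 1 and 13.4% in replicate 2. Without them the protein-coding transcripts came to 3.64 TPM in replicate 1 and 4.86 TPM in replicate 2, the opposite order to the gene total. In the second table they came to 8.91 and 7.10 TPM, in the same order as its gene total of 11.8 and 9.94 TPM, so the reversal holds in the first table alone.

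The 250 bases before the RefSeq start were searched for letters known from class I promoters, for the 34 members with an entry. GGGGA and TCCCC with 1 base between them, a kappa B site bound by NF-kappa B, was found on either strand in 3 of 34 members, H2-K1, H2-D1 and H2-Q6, and in 0.0518% of 27025 genes. GAAA followed after 2 bases by GAAA, an interferon-stimulated response element, was found in B2m, H2-T22 and H2-T23 and in 3.46% of genes. TGACG, the core of the site bound by CREB factors, was found in 14 members and 19.8% of genes, and CCAAT, the site of the NF-Y factor, in 31 members and 37.5% of genes. A match describes the letters and is not evidence of binding. Only these exact letters were searched, so a promoter without a match may still hold a variant of the site. The promoters of B2m, the most abundant member, and of the classical chain H2-K1 are shown with these motifs in capitals, from RefSeq on GRCm38.p6, at chr2:122147437-122147686 (plus strand) and chr17:34000348-34000597 (minus strand).
B2m: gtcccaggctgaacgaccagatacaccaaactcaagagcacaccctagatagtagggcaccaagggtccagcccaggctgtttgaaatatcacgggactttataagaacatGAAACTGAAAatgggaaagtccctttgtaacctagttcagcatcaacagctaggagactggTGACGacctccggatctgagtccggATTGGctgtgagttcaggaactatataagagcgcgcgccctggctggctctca
H2-K1: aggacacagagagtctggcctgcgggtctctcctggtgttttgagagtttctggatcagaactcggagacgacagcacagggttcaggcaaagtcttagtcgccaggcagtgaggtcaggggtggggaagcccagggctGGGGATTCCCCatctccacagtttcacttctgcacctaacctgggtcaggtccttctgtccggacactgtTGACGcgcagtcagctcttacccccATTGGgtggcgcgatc

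The wider pathway was present but uneven. Of the 5 immunoproteasome genes 3 were detected. The catalytic subunit Psmb10 had 36.03 TPM in replicate 1 and 40.2 TPM in replicate 2, while Psmb8 had 0.76 and 0.89 TPM and Psmb9 0.26 and 0.60 TPM. The activator subunit Psme2 had 19.6 and 20.9 TPM. All 10 peptide loading and trimming genes were detected, led by the chaperones Calr (236 TPM in replicate 1 and 246 in replicate 2) and Canx (183 and 193 TPM), which serve many proteins beside class I. The lowest were Tapbpl, a tapasin relative, with 1.87 and 1.52 TPM, and Ifi30, a lysosomal thiol reductase of class II presentation, with 2.76 and 1.61 TPM.

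All 11 factors known from MHC promoters were detected, with Nfyb highest, with 30.7 TPM in replicate 1 and 27.7 TPM in replicate 2, and Irf8 lowest, at 2.16 and 2.15 TPM. The 4 interferon receptor genes were detected, and the ligands Ifng and Ifnb1 had no read. Of 7 class I-like genes outside the complex 2 were detected, the IgG receptor Fcgrt with 10.28 TPM in replicate 1 and 10.55 TPM in replicate 2 and the iron regulator Hfe at 1.16 and 1.61 TPM, while Azgp1 had no read in the gene table. Of 6 proposed neuronal partners of class I only Insr, the insulin receptor, was detected, at 21.1 and 19.1 TPM. Pirb had 0.08 and 0.09 TPM, and Cd247 and Kir3dl1 had no read.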

How the data were processed

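Total RNA-seq tables of 2 samples of 1 group were used, with mm10 and GENCODE M21 named in the file list the authors deposited. Per the file headers, expected counts and TPM stand in the gene table and in a first transcript table under RSEM's column names, with posterior mean counts, their SD (a score here) and posterior TPM, and the isoform percentage of each transcript as the authors' percent values; a second transcript table has kallisto's column names, for estimated counts and TPM. Aligner, strand setting and program versions: not given in the sources used here. Effective length in the gene table is the length less 99 bases.

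A level is a mean TPM with its SD (n = 2), detection is 1 TPM in both animals, and a difference is the log2 ratio of replicate 1 to replicate 2 after adding 0.5 to TPM, which shrinks the differences of low genes. The difference filter was a mean expected count of at least 10. Counting intervals are exact binomial 95% intervals of counts scaled by TMM (edgeR 4.0.16, R 4.3.3; expected counts rounded); DESeq2 1.42.0 size factors and spike-in totals (96 spike-ins) were alternatives. They cover counting error only, as reads carry no molecular identifiers. The scaling step was tested on simulated data. Other steps used Python 3.11.15 with pandas 2.3.3 and numpy 2.4.6, intervals scipy 1.17.1, and figures matplotlib 3.10.9. Windows of 100 and 31 bases were matched between genes on the M21 transcripts, and 34 members matched RefSeq promoters by symbol.

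Named with values are members detected in both animals, assembly, regulator and classical class II genes, and those furthest apart between animals or tables; lists name the highest and lowest. The members and lists were chosen with earlier results of these data known. No p-values were computed.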

Additional observations from a re-analysis of the deposited data

How the results depend on the processing

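No paired analysis was possible because there is 1 group. Detected members rose in number to 17 at 0.5 TPM and to 17 in the second transcript table, from 11, and were 13 with either animal alone. The median level was 0.694 TPM in the second table and 1.28 TPM among members with a mean count of at least 10, and 0.31 to 0.36 TPM with either animal alone. The median difference between animals was -0.18 when counts were scaled to the spike-in total, where all genes shifted by -0.15, and it reversed to 0.033 in the second table. Members 1.5-fold apart between animals numbered 0 by TPM, 1 with TMM (H2-Q4), 1 with DESeq2 size factors, 2 with a pseudocount of 0.1, 3 with spike-ins and 1 in the second table. Members 2-fold apart between tables numbered 1 with a pseudocount of 1, 3 to 4 with either animal alone, 1 by counts, 4 by counts with 10 in either table, and 6 by counts with any read; the last 2 filters and the use of counts were chosen after the values were seen. The class I share of H2-K1 and H2-D1 was 46.5% in the second table, and 53.6% to 56.6% with either animal alone. Of 16 named members, the level moved by more than its SD in 15 in the second table, where all 16 were higher, and in 11 with posterior mean TPM. Causes were not tested unless stated. Depth limits the low members: a count of 0 allows 3 counts.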

Other observations

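Among the 8 H2- genes without a protein-coding transcript, H2-T-ps had 8.49 expected counts in replicate 1 and 20.9 in replicate 2, and H2-M6-ps had 7 and 11. The few H2-Eb1 reads were assigned to different transcripts in the animals. H2-Eb1-205, annotated for nonsense-mediated decay, held 18.1 of 27 counts in replicate 1 and 0 of 21 in replicate 2, whereas retained-intron transcripts held 2.11 counts in replicate 1 and 18.0 in replicate 2. The second table gave H2-Eb1-205 21.2 of 28 counts in replicate 1 and 0 of 20 in replicate 2, but retained-intron transcripts only 0 and 7.58 counts, with 12.4 counts protein-coding in replicate 2.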
